A study of Rattus norvegicus with 9 samples.

Results

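Small leucine-rich proteoglycans (SLRPs) are secreted proteins of connective tissue matrix built around a curved stack of leucine-rich repeats. Most of them bind collagen fibrils, limit the width of the fibrils and hold them apart, and several carry chains of chondroitin, dermatan or keratan sulfate. In tendon, meniscus, joint capsule and skin they are made mainly by fibroblasts and fibrochondrocytes, and some also bind growth factors of the TGF-β family or receptors of innate immunity. The genes described here were chosen by symbol and are Dcn, Bgn, Aspn, Fmod, Lum, Prelp, Omd, Ogn, Chad and Podn. All 10 were found among the 17602 genes of the deposited table, and all 10 passed the filter for testing (above 0 TPM in at least 3 libraries).

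The RNA came from knees of wild-type male Lewis rats, 10 to 12 weeks of age in the study's methods, in 3 groups of 3 libraries. The intact group was synovium, the lining of the joint, taken around the medial meniscus of rats without surgery. The sham group was the same tissue 1 week after the joint capsule had been opened and closed. The pMx group was the tissue regenerating 1 week after partial medial meniscectomy (pMx). This bilateral operation leaves each knee without the anterior part of its medial meniscus, a pad of fibrocartilage. Adjoining synovium was dissected off the regenerating tissue before RNA extraction. Surgery and tissue therefore cannot be told apart between pMx and sham. The sample titles call each library a biological replicate. The sources do not say whether a library is 1 rat or a pool, nor whether both knees of a rat were used. The p-values therefore set differences against the spread between these libraries, which may not be that between rats. Values are TPM, shares of a library's transcripts that take transcript length into account, so that genes can be compared and each library sums to 1000000. A gene is said to have risen or fallen where limma, fitted over all genes on log2(TPM + 1), gave an adjusted p below 0.05, and it was a differentially expressed gene (DEG) where the log2 fold change also exceeded 1 in either direction.

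Across genes, libraries of one group correlated at 0.954 to 0.996 and those of different groups at 0.902 to 0.989, and TPM keeps no read depth. Intact replicate 3 stood apart. The summed TPM of 6 skeletal muscle markers was 36200 in it and 51.4 to 2438 in the other 8 libraries, and 8 of the 10 SLRP genes had their lowest intact value there. Of the markers of synovial lining fibroblasts, Prg4, which encodes lubricin, was present in every library (1084.36 to 2986.46 TPM). The summed level of the 5 lining markers was 2817 to 3807 TPM (intact), 1604 to 2053 TPM (sham) and 1192 to 1885 TPM (pMx). None of them rose, 3 fell in sham versus intact and 4 in pMx versus sham, where the median log2 fold change was -1.02. Prg4 was among those that fell in sham versus intact and not among those that fell in pMx versus sham. Mean Clic5 was 239 ± 76.5 TPM after sham surgery and 13.1 ± 4.2 TPM in regenerating tissue (SD, n = 3 each). All 5 adipocyte and all 4 Schwann cell markers fell in pMx versus sham. Over all genes tested 17.7% rose and 18.9% fell in that comparison, and 6.73% and 5.97% in sham versus intact. The summed level of 8 markers of connective tissue fibroblasts ranged from 665 to 966 TPM (intact), 1305 to 1468 TPM (sham) and 1989 to 2071 TPM (pMx). Of these 8, 2 rose and 4 fell in pMx versus sham, with a median log2 fold change of -0.37. Thy1 rose in both comparisons while Pi16 and Dpp4 fell in pMx versus sham, and without Thy1 the sum of the other 7 was 565 to 848 TPM (intact), 1055 to 1073 TPM (sham) and 914 to 1059 TPM (pMx). The summed level of 4 tendon and ligament markers was 49.32 to 200.45 TPM (intact), 232.86 to 289.81 TPM (sham) and 824 to 1052 TPM (pMx). Of these markers 2 (Scx and Thbs4) rose in pMx versus sham. Thbs4 alone made up most of this sum, at 177.82 to 246.97 TPM (sham) and 658.52 to 823.34 TPM (pMx). The sum of 5 mural cell markers was 3148 to 5029 TPM (intact), 2298 to 2671 TPM (sham) and 1256 to 1475 TPM (pMx). That of 5 endothelial markers was 645 to 834 TPM, 537 to 566 TPM and 414 to 526 TPM in the same order. Of the mural markers 2 fell and none rose in pMx versus sham (median log2 fold change -0.15). Of the endothelial markers 3 fell and none rose there (median -0.56), beside 18.9% of all genes that fell. In sham versus intact 2 mural markers and 1 endothelial marker fell, beside 5.97% of all genes. For 5 macrophage markers the sum was 592 to 966 TPM (intact), 1090 to 1103 TPM (sham) and 830 to 1111 TPM (pMx). Of these 5, 3 rose in sham versus intact and 1 in pMx versus sham, beside 6.73% and 17.7% of all genes. The RNA integrity numbers listed in the study's supplement were also separate between the groups, lowest for intact, higher for sham and highest for pMx, the order in which Lum, Bgn, Aspn and Fmod stepped upward. The part of these differences in the SLRP values was not tested, and in bulk tissue a smaller number of cells of a type and less RNA per cell cannot be told apart.

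Summed, the 10 SLRP genes took up more of the transcriptome after surgery, and the leading gene changed from decorin to lumican. This sum follows its most abundant genes and was not tested. Mean Lum was 2180 TPM after sham surgery and 7012 TPM in regenerating tissue. The median log2 fold change of the 10 genes in pMx versus sham was -0.26, beside -0.01 over all genes tested. The 10 genes together made up 0.777% ± 0.112 of all TPM in intact synovium, 1.08% ± 0.0124 after sham surgery and 1.62% ± 0.0238 in regenerating tissue (SD, n = 3 each). Dcn supplied 62.2% ± 0.972 of that sum in intact synovium, 43.2% ± 3.94 after sham surgery and 15.1% ± 1.44 in regenerating tissue. Lum went the other way, from 7.48% ± 0.306 through 20.1% ± 3.54 to 43.3% ± 0.560. Bgn supplied 14.2% ± 0.862, 20.4% ± 0.998 and 24.5% ± 0.633 in the same order, and Aspn 2.63% ± 0.179, 4.45% ± 0.183 and 8.17% ± 0.248. Among all genes of a library ordered by TPM, Dcn stood at place 11 to 25 in the intact group and 55 to 76 in the pMx group. Lum moved from place 216 to 286 up to place 8 or 9.

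**Figure D1:**
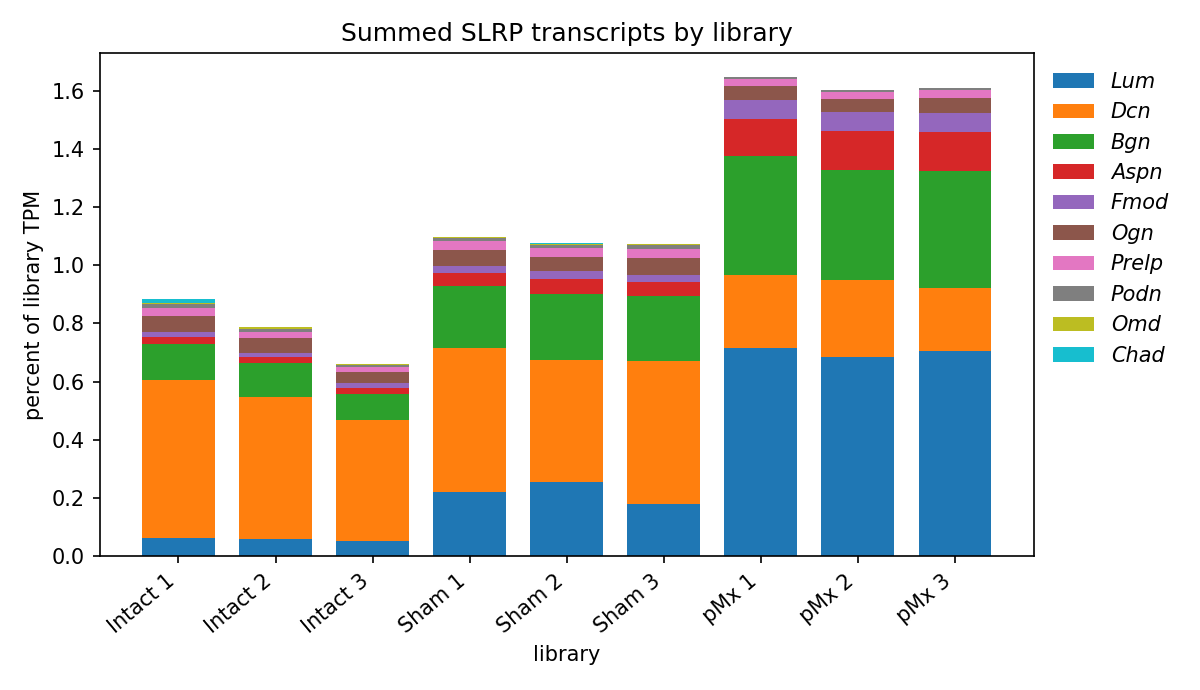
Percent of the total TPM of each library taken up by the 10 SLRP genes, stacked by gene for the 3 intact, 3 sham and 3 pMx libraries. The stacks reach 0.661% to 0.884% in the intact group and 1.60% to 1.65% in the pMx group, with Dcn the tallest segment in the intact and sham libraries and Lum in the pMx libraries.

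Between pMx and sham limma called 7 of the 10 genes, where 36.6% of all genes tested were. Of these 4 rose (Lum, Aspn, Fmod and Bgn), against 17.7% of all genes, and 3 fell (Omd, Dcn and Podn), against 18.9%. The libraries of the groups did not overlap for 9 of the 10, beside 56.1% of all genes. With the fold-change threshold 3 genes were higher and 1 lower, or 4 in either direction, beside 3.36%, 4.85% and 8.21% of all genes.

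Between sham and intact the same 4 genes rose, against 6.73% of all genes, and none fell, against 5.97%, so that 4 were called where 12.7% of all genes were. There the groups did not overlap for 5 of the 10, against 30.6%. With the fold-change threshold 3 genes (Lum, Aspn and Bgn) were higher and 0 lower, 3 in all, beside 1.42%, 0.533% and 1.96% of all genes. The count of 4 called was 3 with the replicate number as a block, where Fmod lost its call (adjusted p = 0.0718 from limma). With a library left out it was 3 to 5. The median log2 fold change of the 10 genes was 0.39 for this comparison and -0.26 for pMx against sham, beside -0.02 and -0.01 over all genes tested. The comparisons share the sham libraries, so they are not independent of each other. In pMx versus intact 8 of the 10 were called (50.6% of all genes), of which 4 rose (23.4%) and 4 fell (27.1%), Chad being the fourth. There 4 were higher and 2 lower with the fold-change threshold, 6 in all (6.4%, 7.89% and 14.3% of all genes), and the libraries did not overlap for 8 (57.5%). The count of 8 called was 7 with the replicate number as a block, where Chad lost its call (adjusted p = 0.0921 from limma). With a library left out it was 7 or 8.

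**Figure D2:**
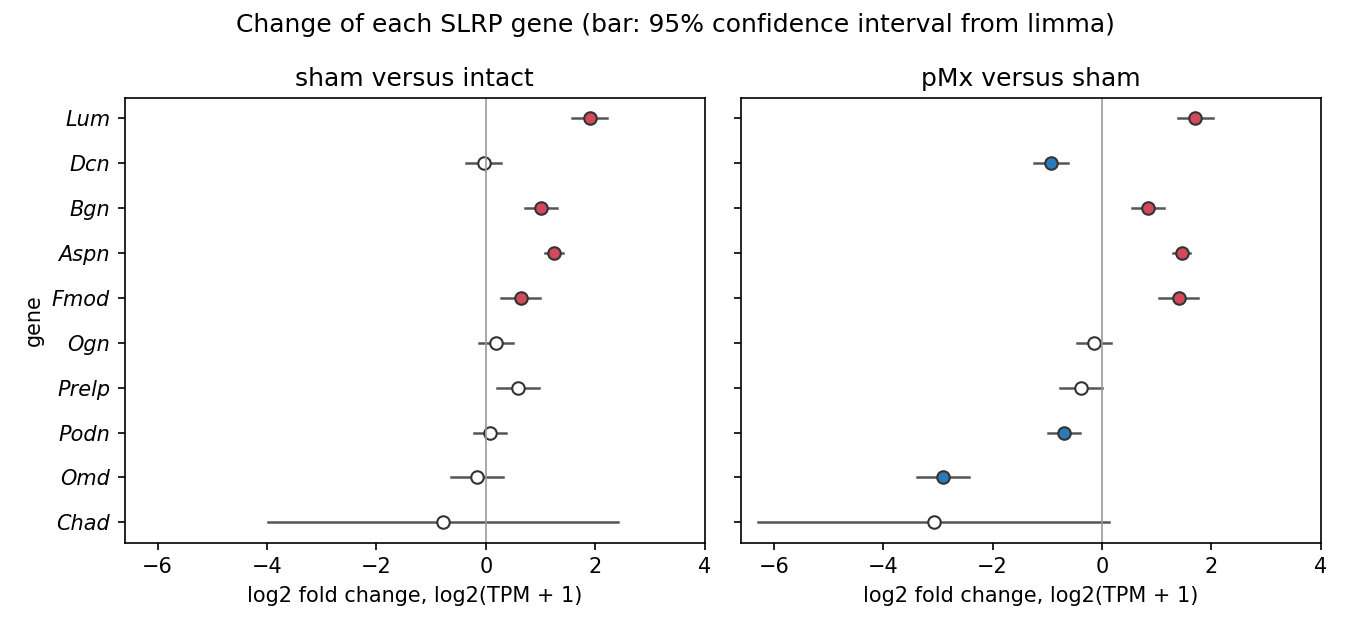
Log2 fold change of each SLRP gene on the log2(TPM + 1) scale with its 95% confidence interval from limma, for sham versus intact (left) and pMx versus sham (right). Filled points passed the adjusted p of 0.05 (red higher, blue lower) and open points did not. Lum, Bgn, Aspn and Fmod are red in both panels, while Dcn, Podn and Omd are open on the left and blue on the right.

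Class I holds decorin, biglycan and asporin. Decorin, a collagen-binding proteoglycan with a single dermatan or chondroitin sulfate chain, was the most abundant member in both synovium groups. Dcn (gene identifier 29139) measured 5435.18, 4856.94 and 4184.83 TPM in intact synovium, 4955.90, 4171.96 and 4921.10 TPM after sham surgery and 2496.80, 2640.09 and 2187.01 TPM in regenerating tissue. Every pMx value was below every synovium value, and the intact and sham values overlapped. In pMx versus sham Dcn fell by 0.94 on the log2 scale, 1.92-fold, with a standard error of 0.14 (adjusted p = 0.000994 from limma). Sham differed from intact by -0.04 (95% interval -0.35 to 0.27, adjusted p = 0.886 from limma).

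Biglycan is the closest relative of decorin, carries a pair of such chains and also acts as a danger signal at Toll-like receptors. Bgn (gene identifier 25181) measured 1239.85, 1189.77 and 888.93 TPM in intact synovium, 2117.23, 2287.56 and 2225.21 TPM after sham surgery and 4086.67, 3802.60 and 3991.39 TPM in regenerating tissue. The 3 groups were separate and stepped upward. Bgn rose by a log2 fold change of 1.01 from intact to sham (adjusted p = 0.00468) and of 0.84 from sham to pMx (adjusted p = 0.00123 from limma), each with a standard error of 0.13. Without intact replicate 3, the library with muscle transcripts, the sham versus intact change of Bgn was 0.86 (adjusted p = 0.00155 from limma).

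Asporin has a run of aspartates at its start in place of a glycosaminoglycan chain and binds TGF-β. Aspn (gene identifier 306805) measured 215.17, 209.81 and 184.16 TPM in intact synovium, 468.05, 499.38 and 476.88 TPM after sham surgery and 1298.78, 1326.07 and 1343.18 TPM in regenerating tissue. The groups were separate, and the standard error, 0.07, was the smallest among the 10 genes. On the log2 scale the rise from intact to sham was 1.24 (adjusted p = 0.000247) and that from sham to pMx 1.46 (adjusted p = 1.09e-05, limma).

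Within class I the balance turned over. There were 0.228, 0.245 and 0.212 Bgn transcripts per Dcn transcript in the intact libraries, 0.427, 0.548 and 0.452 in the sham libraries and 1.64, 1.44 and 1.83 in the pMx libraries, so biglycan exceeded decorin only in the pMx libraries. The log2 ratio of Bgn to Dcn differed by 1.78 between pMx and sham and by 1.05 between sham and intact. The ratio of Aspn to Dcn went from 0.0396 to 0.0440 (intact) and 0.0944 to 0.120 (sham) to 0.502 to 0.614 (pMx). No library of one group overlapped another group in either ratio, and each two-sided exact permutation test gave p = 0.1, the smallest that 3 libraries against 3 allow. A ratio within a library does not depend on how that library was scaled.

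**Figure D3:**
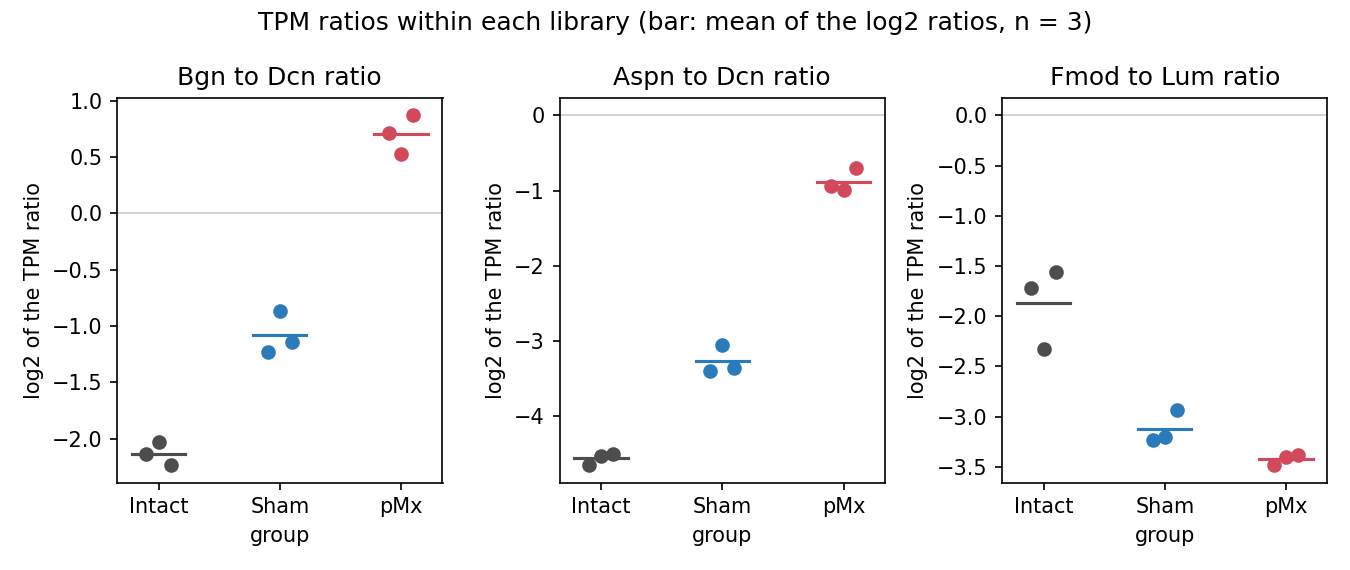
Log2 of the TPM ratio of Bgn to Dcn, Aspn to Dcn and Fmod to Lum in each library, by group, with a bar at the mean (n = 3). The Bgn to Dcn ratio lies above 0 in the 3 pMx libraries and below 0 in the other libraries, and the Fmod to Lum ratio is lowest in the pMx group.

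Class II holds lumican, fibromodulin, PRELP and osteomodulin, most of which carry keratan sulfate chains or sulfated tyrosines. Lumican, known from the transparent cornea, regulates the spacing of collagen I fibrils. Lum (gene identifier 81682) measured 630.67, 601.42 and 507.21 TPM in intact synovium, 2193.79, 2558.27 and 1788.51 TPM after sham surgery and 7152.91, 6842.22 and 7041.01 TPM in regenerating tissue. The lowest value of each operated group lay far above the highest value of the group before it. Lum rose by a log2 fold change of 1.90 with sham surgery (adjusted p = 0.00076) and by a further 1.70 from sham to pMx (adjusted p = 7.08e-05 from limma), each with a standard error of 0.14. From intact to pMx the log2 fold change was 3.60, or 12.1-fold.

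Fibromodulin binds the same region of collagen I as lumican and is abundant in tendon and meniscus. Fmod (gene identifier 64507) measured 192.18, 120.07 and 172.37 TPM in intact synovium, 232.43, 277.59 and 233.43 TPM after sham surgery and 639.28, 645.90 and 673.30 TPM in regenerating tissue. The pMx values stood far above the rest, and the intact and sham values were separate but near. From sham to pMx the log2 rise of Fmod was 1.40 (adjusted p = 0.000282 from limma). The rise from intact to sham was 0.64 (adjusted p = 0.0354 from limma), both with a standard error of 0.16. This second call was lost when any one of the 3 sham or 3 pMx libraries was left out, with changes of 0.55 to 0.68 and adjusted p of 0.0558 to 0.122 from limma. It was also lost with the replicate number as a block and in a fit on the 6 intact and sham libraries (adjusted p = 0.0718 and 0.102 from limma). Fmod transcripts per Lum transcript numbered 0.200 to 0.34 (intact), 0.106 to 0.131 (sham) and 0.0894 to 0.0956 (pMx). The groups did not overlap (two-sided exact permutation p = 0.1 for each pair, the smallest possible).

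PRELP has a basic, heparin-binding end and links collagen to basement membranes. Prelp (gene identifier 84400) measured 283.38, 194.47 and 164.80 TPM in intact synovium, 313.39, 319.43 and 309.76 TPM after sham surgery and 232.66, 229.20 and 262.91 TPM in regenerating tissue. The sham values were the highest, and neither difference passed the test. Sham against intact gave a log2 fold change of 0.59 (95% interval 0.20 to 0.98, adjusted p = 0.0565), and pMx against sham gave -0.38 (95% interval -0.77 to 0.01, adjusted p = 0.116 from limma). Without intact replicate 1, whose Prelp level was the highest of its group, both passed (adjusted p = 0.0039 and 0.00843 from limma), with changes of 0.81 and -0.38. Sham against intact also passed with a minimum mean of 1 TPM, with median-of-ratios scaling and with robust eBayes (adjusted p = 0.044, 0.03 and 0.0468 from limma). Likewise pMx against sham passed in a fit on its 6 libraries and without intact replicate 3 (adjusted p = 0.00277 and 0.0408 from limma).

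Osteomodulin is a member of mineralizing tissues, where it is made by osteoblasts and odontoblasts. Omd (gene identifier 83717) measured 44.48, 37.12 and 25.13 TPM in intact synovium, 32.13, 25.42 and 36.12 TPM after sham surgery and 3.75, 2.89 and 3.2 TPM in regenerating tissue. The synovium groups overlapped, and the pMx values were all far below them. From sham to pMx the log2 fold change was -2.90, 7.48-fold lower, with a standard error of 0.21 (adjusted p = 4.03e-05 from limma). Of the 5 osteoblast markers measured beside it, Sp7 and Runx2 rose in pMx versus sham, where 17.7% of all genes tested rose. Sp7 lay between 0.26 and 0.64 TPM after sham surgery and between 3.32 and 3.45 TPM in regenerating tissue. Bglap, Ibsp and Dmp1 did not pass the test.

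**Figure D4:**
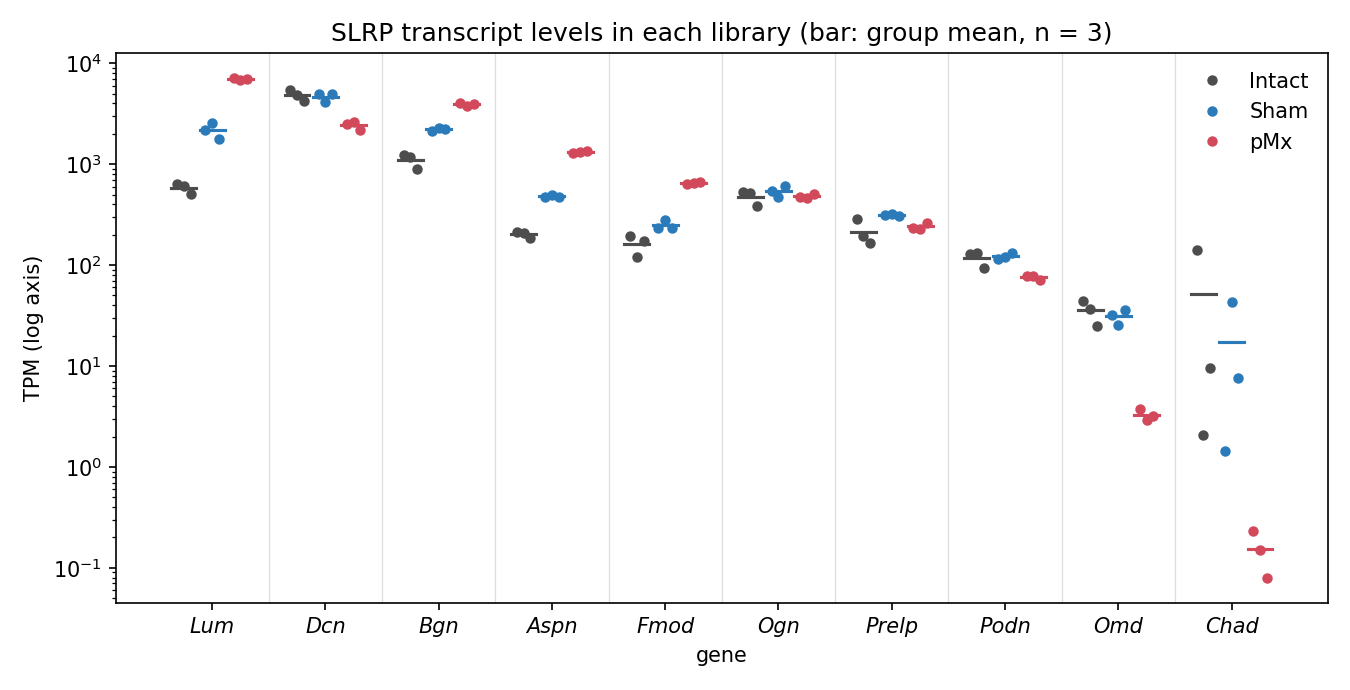
TPM of each SLRP gene in each library on a logarithmic axis, colored by group, with a bar at the group mean (n = 3). Lum, Bgn, Aspn and Fmod step upward from intact through sham to pMx, Dcn, Podn and Omd drop in the pMx group only, and Chad is scattered in the intact and sham groups.

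The remaining members belong to other classes. Osteoglycin, also called mimecan, is a class III protein of connective tissue and bone that takes part in collagen fibril growth. Ogn (gene identifier 291015) measured 532.96, 514.90 and 382.91 TPM in intact synovium, 537.20, 472.93 and 604.21 TPM after sham surgery and 475.97, 463.36 and 510.79 TPM in regenerating tissue. The 3 groups overlapped. Ogn differed by -0.15 between pMx and sham (95% interval -0.46 to 0.16, adjusted p = 0.441) and by 0.18 between sham and intact (95% interval -0.13 to 0.49, adjusted p = 0.43 from limma).

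Podocan, a class V member first described in the kidney, binds collagen I. Podn (gene identifier 102552895) measured 127.92, 132.73 and 92.91 TPM in intact synovium, 116.17, 120.99 and 132.13 TPM after sham surgery and 78.78, 77.51 and 70.85 TPM in regenerating tissue. Like Dcn it did not separate intact from sham and was lower in each pMx library, with a log2 fold change of -0.69 against sham and a standard error of 0.13 (adjusted p = 0.00331 from limma).

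Chondroadherin is a class IV protein of cartilage that binds integrins and collagen II and has no glycosaminoglycan chain. Chad (gene identifier 29195) measured 142.50, 2.07 and 9.52 TPM in intact synovium, 1.43, 42.97 and 7.54 TPM after sham surgery and 0.23, 0.15 and 0.08 TPM in regenerating tissue. Each synovium group spanned more than an order of magnitude, intact replicate 1 and sham replicate 2 being far above their groups, while every pMx value was below every synovium value. The log2 fold change from sham to pMx was -3.07 with a wide interval (-6.28 to 0.13, adjusted p = 0.124 from limma). It was -1.98 without sham replicate 2 and -4.07 without sham replicate 1. It passed the test without intact replicate 1 and in a fit on the 6 pMx and sham libraries (adjusted p = 0.0392 and 0.0382 from limma), and with pseudocounts of 0.1 and 0.01 it was -5.02 and -5.68 (adjusted p = 0.0311 and 0.0209 from limma). That from intact to pMx, -3.86, had an adjusted p of 0.0477 from limma. Leaving out intact replicate 1, intact replicate 3, sham replicate 3 or any pMx library lost this call (adjusted p of 0.0608 to 0.116 from limma), and without intact replicate 1 the change was -2.30. With a replicate block the call was lost too (adjusted p = 0.0921 from limma), as it was in 5 other fits to all or the 6 compared libraries (adjusted p of 0.0516 to 0.0906 from limma). Col2a1, the cartilage collagen, was at 16.14 TPM in intact replicate 1 and at 0.14 to 2.26 TPM in every other library. In sham replicate 2 Col2a1 was at 0.46 TPM and Comp at 470.86 TPM, the lowest Comp value of its group. Over the 9 fibrocartilage markers in the table, 4 rose and 2 fell in pMx versus sham, beside 17.7% and 18.9% of all genes, and their summed level was 980 to 1187 TPM in regenerating tissue, 503 to 604 TPM after sham surgery and 259 to 673 TPM in intact synovium. Comp alone made up most of this sum in each library, at 785.86 to 933.18 TPM in regenerating tissue and 470.86 to 565.24 TPM after sham surgery. The part of the fibrocartilage markers in the Chad values was not tested.

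The order of the levels changed with these shifts. In the intact group it ran Dcn, Bgn, Lum, Ogn, Prelp, Aspn, Fmod, Podn, Chad and Omd, and the ranges of neighbors overlapped from Lum to Ogn and from Prelp down to Omd. In the sham group it ran Dcn, Bgn, Lum, Ogn, Aspn, Prelp, Fmod, Podn, Omd and Chad, with overlaps between Bgn and Lum, Ogn and Aspn, and Omd and Chad. In the pMx group the order was Lum, Bgn, Dcn, Aspn, Fmod, Ogn, Prelp, Podn, Omd and Chad, and no neighbors overlapped. The coefficient of variation within the pMx group was 1.69% for Aspn, 2.24% for Lum, 2.76% for Fmod and 3.65% for Bgn, between 5.08% and 9.49% for Ogn, Podn, Prelp and Dcn, 13.3% for Omd and 48.9% for Chad.

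Several SLRP genes lie in clusters, and in the clusters of Dcn and of Aspn neighbors moved in opposite directions. In RefSeq gene order (assembly GRCr8, used for order only), Dcn and Lum are adjacent and are followed by Kera and Epyc. Ogn, Omd, Aspn and Ecm2 form another cluster, and so do Optc, Prelp and Fmod. In the first of these, Lum rose and Dcn fell in pMx versus sham. In the Ogn cluster, Aspn rose while Omd on one side and Ecm2 on the other fell, and Ogn did not pass the test. Between Aspn and Ecm2 lies 1 other gene. Beside Prelp and Optc, Fmod rose, while neither of them passed the test. The models of the Ogn cluster lie within the span of Cenpp, which was at 0.42 to 2.17 TPM over all libraries, and that of Chad within the span of Acsf2, at 9.29 to 17.43 TPM. The library kit marks strand, but whether strand was used in counting is not given in the sources used here.

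**Figure D5:**
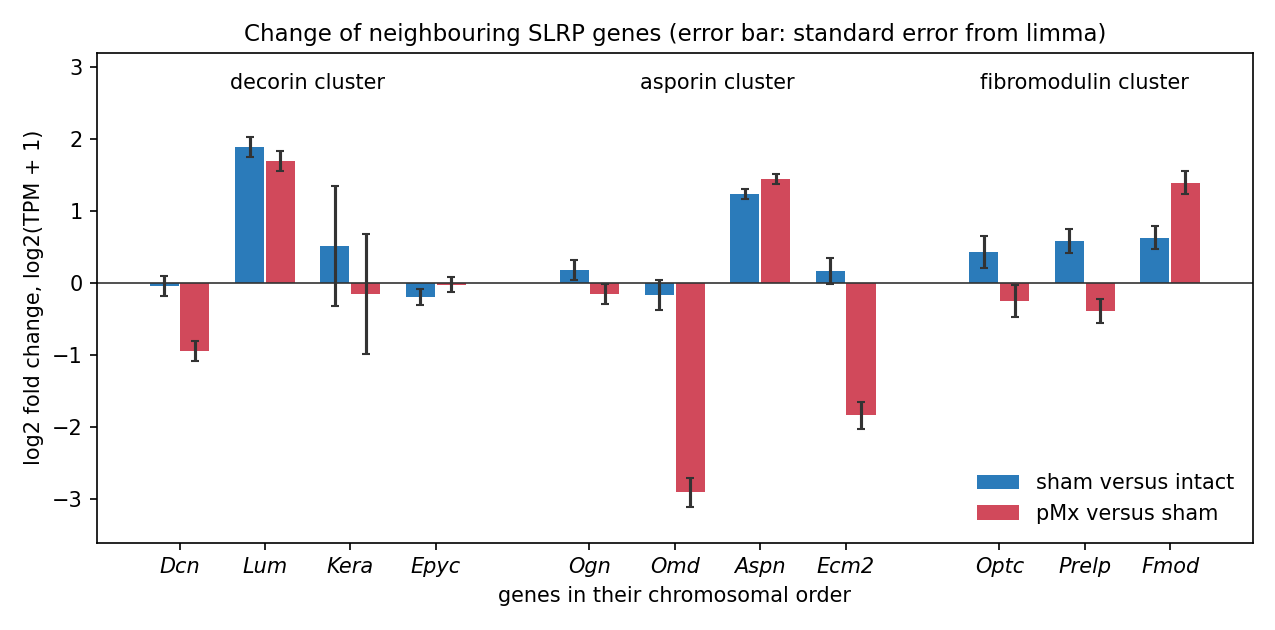
Log2 fold change on the log2(TPM + 1) scale of SLRP genes in their chromosomal order within 3 clusters, for sham versus intact (blue) and pMx versus sham (red), with the standard error from limma. In pMx versus sham the bars of Lum and Aspn point upward beside downward bars of Dcn, Omd and Ecm2.

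The sequences before the start sites of genes that rose together (Lum, Fmod and Aspn), and of Omd, the neighbor of Aspn that fell, are shown for comparison. They are the 250 bases before each annotated start, from RefSeq on GRCr8, 5′ to 3′ on the gene's strand, and 7 of the 10 genes had an entry. Whether these starts match those of mRatBN7.2, the build named for the deposited values, is not known. Capitals mark matches, on either strand, to CAGAC, the core of the SMAD binding element used by TGF-β signaling.
Lum, chr7:34245456-34245705, plus strand: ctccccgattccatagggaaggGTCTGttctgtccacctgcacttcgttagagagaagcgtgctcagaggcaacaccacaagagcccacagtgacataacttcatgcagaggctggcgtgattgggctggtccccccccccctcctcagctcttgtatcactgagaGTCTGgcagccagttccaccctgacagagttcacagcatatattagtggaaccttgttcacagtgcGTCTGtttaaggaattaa
Fmod, chr13:48045317-48045566, plus strand: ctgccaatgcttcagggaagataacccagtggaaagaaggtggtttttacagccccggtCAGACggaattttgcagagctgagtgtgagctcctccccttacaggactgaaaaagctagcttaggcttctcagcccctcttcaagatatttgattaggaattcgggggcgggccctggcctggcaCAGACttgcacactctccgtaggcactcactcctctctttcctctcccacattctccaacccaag
Aspn, chr17:15310470-15310719, minus strand: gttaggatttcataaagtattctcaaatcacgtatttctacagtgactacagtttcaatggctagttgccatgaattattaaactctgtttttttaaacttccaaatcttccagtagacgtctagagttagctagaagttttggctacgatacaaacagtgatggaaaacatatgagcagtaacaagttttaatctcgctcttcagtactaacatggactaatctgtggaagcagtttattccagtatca
Omd, chr17:15274871-15275120, minus strand: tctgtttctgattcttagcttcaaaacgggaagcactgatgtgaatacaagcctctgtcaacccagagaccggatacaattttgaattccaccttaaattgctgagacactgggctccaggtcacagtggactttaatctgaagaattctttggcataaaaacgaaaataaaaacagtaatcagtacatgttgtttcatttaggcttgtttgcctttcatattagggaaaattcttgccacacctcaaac

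The Lum window held 3 matches and the Fmod window 2, and those of Aspn and Omd held none. Over the 7 genes with an entry, 3 held the motif (Lum, Fmod and Ogn), where 42.9% of 33469 windows of the same length did. The other motifs searched, also on both strands, were TATAAA (a core promoter element, in the windows of Ogn and Chad and in 12.9% of all windows), CAGATG (an E-box, in that of Podn and in 14.0%), AACAAT (a SOX motif, in none of the 7 and in 10.3%) and TGANTCA (an AP-1 motif, in none of the 7 and in 6.3%). GC content was 34.8% for Aspn, 38.8% for Omd and 52.8% for both Lum and Fmod, beside a median of 51.2% over all windows. A match to so short a motif is a description and does not show binding.

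Of the 9 other SLRP genes, 8 were tested, with Nepn below the filter. In pMx versus sham 2 rose and 1 fell, 3 of 8 called, which is near the 36.6% called among all genes. Podnl1, a relative of podocan, measured 0.27, 0.36 and 0.06 TPM in intact synovium, 9.83, 12.48 and 3.60 TPM after sham surgery and 71.17, 63.20 and 65.75 TPM in regenerating tissue. It passed the test in each step, with log2 fold changes of 2.84 from intact to sham (adjusted p = 0.00419) and 2.95 from sham to pMx (adjusted p = 0.000324 from limma). Tsku, which encodes the secreted signaling modulator tsukushi, rose by 0.57 from intact to sham (adjusted p = 0.02) and by 0.99 from sham to pMx (adjusted p = 0.000371 from limma). Mean Ecm2 was 178 ± 29.8 TPM after sham surgery and 48.7 ± 1.67 TPM in regenerating tissue (SD, n = 3 each), and it fell by 1.83 on the log2 scale (adjusted p = 0.000154 from limma). Kera, which encodes the corneal keratan sulfate proteoglycan keratocan, was scattered from 4.92 to 73.36 TPM in the intact group and did not pass the test. Epyc, Nyx, Optc and Chadl did not pass the test either, and Epyc and Nyx were below 1 TPM in each group mean.

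Of the genes that build the side chains, some rose. Of 25 genes of chondroitin and dermatan sulfate synthesis, 11 rose and none fell in pMx versus sham, with a median log2 fold change of 0.24, where 17.7% of all genes rose and 18.9% fell. Chsy1, a chondroitin polymerase, rose from 27.6 ± 4.49 to 85.5 ± 2.35 TPM (log2 fold change 1.61, adjusted p = 4.72e-05 from limma). Chsy3, Chpf2 and B4galt7 followed with 1.17, 1.11 and 0.93, the last of these encoding an enzyme of the linker between protein and chain. In sham versus intact, 4 of the 25 rose and 3 fell, where 6.73% of all genes rose and 5.97% fell. Of 10 tested genes of keratan sulfate synthesis and tyrosine sulfation, 4 rose and 2 fell in pMx versus sham, beside the same 17.7% and 18.9% of all genes, and the number that fell is near that share. The sulfotransferase gene Chst1 rose by 0.96 and the galactosyltransferase gene B4galt1 by 0.95. Chst5 rose by 1.07 from near 0 (0.0933 ± 0.0577 to 1.30 ± 0.272 TPM, SD, n = 3 each), and Tpst1, which encodes a tyrosine sulfotransferase, fell by 0.90.

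Most chains of the collagens that SLRPs bind rose in both comparisons. Of 12 such chains, 10 rose and 1 fell in pMx versus sham (median log2 fold change 1.72), and 11 rose in sham versus intact (median 1.31). Of all genes 17.7% rose and 18.9% fell in the former and 6.73% rose in the latter. The largest increases in pMx versus sham among them were those of Col12a1 (3.63), Col11a1 (3.30), Col5a1 (2.37) and Col6a3 (1.89). Col14a1 was the one that fell, and Col2a1 did not pass the test. Of 11 tested proteases that process or cleave SLRPs, and their enhancers, 8 rose and 2 fell in pMx versus sham, and 2 of 11 is near the 18.9% of all genes that fell. Mmp13 had a log2 fold change of 2.60, Adamts4 of 2.18, Mmp3 of 1.68 and Mmp14 of 1.46.

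Of 22 growth factors and receptors that SLRPs are known to bind, 4 rose and 7 fell in pMx versus sham, with a median log2 fold change of -0.03. Of all genes tested 17.7% rose and 18.9% fell, so the number that rose is at the background share. Ccn4, a matricellular protein that binds decorin and biglycan, rose by 2.30 (adjusted p = 7.44e-05 from limma). Bmp4 fell by 1.94, Bmp2 by 1.09 and Tgfbr3, which encodes betaglycan, by 1.04. In sham versus intact, 3 of the 22 rose and 1 fell, beside 6.73% and 5.97% of all genes.

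For each SLRP gene the genes with the most similar profile were found among 7822 candidates at or above 1 TPM in every library and varying between libraries by at least 0.5 on the log2 scale, by the root mean square difference of log2(TPM + 1) centered on the mean of the 9 libraries. Among first neighbors the smallest values belonged to Podn with Nme3 (0.06), Bgn with Ppic, a cyclophilin of the secretory pathway (0.06), and Dcn with Gprc5b (0.07). Second for Bgn was Thbs3, a matrix thrombospondin (0.11). Lum was nearest to Cdk1 (0.13) and then Msln (0.15), Fmod to Mthfd2 (0.14) and Dlgap5 (0.16), and Aspn to C1qtnf6 (0.13) and Ptgfrn (0.14). The nearest for Prelp was Optc (0.10), the SLRP gene beside it. Omd was nearest to Mbp, a myelin gene (0.19), and Rcan2 (0.21), and Ogn to Arl8a and Wipf1 (0.08 each). The second genes for Podn, Dcn and Prelp were Nop53 (0.07), Cdk2ap2 (0.08) and Dok2 (0.10). Among these candidates none came close to Chad, for which the nearest were the cartilage gene Ucma (1.35) and Cd5l (1.49). Chad itself was below 1 TPM in every pMx library, and genes that low there were not candidates. The search therefore cannot show whether Chad has a close profile. Among the SLRP genes themselves the closest pairs were Dcn with Podn (0.19), Ogn with Prelp (0.22), Ogn with Podn (0.30) and Bgn with Fmod (0.33). Profiles over 3 groups take few shapes, and the libraries are shared by all genes.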

How the data were processed

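RNA from 9 rat knee samples (3 intact, 3 sham, 3 pMx) was enriched for mRNA on oligo-dT beads, made into dUTP-marked libraries and sequenced by BGI. The authors deposited TPM values and, per the study methods, analysed the data in the Dr. Tom system of BGI. The submitters' processing notes name HISAT2 2.0.4 and the build mRatBN7.2. The counting tool, annotation and filters are not given in the sources used here. All 9 columns were mapped to samples by their titles.

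From the TPM, log2(TPM + 1) was fitted with 1 mean per group for 16512 genes, those above 0 TPM in 3 or more libraries, with limma 3.58.1 in R 4.3.3 (eBayes with a mean-variance trend, Benjamini-Hochberg adjustment over all genes). Fold changes on this scale understate those of genes near 1 TPM. Depth is unknown, so the precision given is the spread between replicates. On simulated data of pMx versus sham with 200 of 16512 genes changed by 2 on the log2 scale, 99% of them were called, with 9 false calls. The simulation drew independent noise for each gene around its sham mean. It changed only genes with a mean log2 level above 2. It therefore does not cover smaller changes, low genes or spread shared between genes. Log2 TPM ratios were compared by exact permutation. By gene identifier 99.0% of genes matched RefSeq (GRCr8). Figures were drawn with Matplotlib 3.10.9.

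The genes, lists and tests were chosen with earlier results of these data known. The text names the 10 genes, all other SLRP genes, up to 4 called genes with the largest change of each list, and the 2 nearest profiles per gene. Genes named beyond this rule as markers or neighbors were chosen after their values were seen. Histology, qPCR and cell culture were not analysed here, and RNA integrity was not a term in any fit.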

Additional observations from a re-analysis of the deposited data

How the results depend on the processing

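Across the 19 other fits of each SLRP gene and comparison, 529 of the values kept their direction and their side of the threshold. The fits changed the pseudocount (0.1 or 0.01), the filter (a mean of at least 1 TPM, or none), the scaling (quantile normalization or median-of-ratios), the libraries (the 6 of a comparison, or 1 library left out in turn), the eBayes step (no trend, or robust) or added a replicate block. A further 20 lost a call (12 of Chad in pMx versus intact and 8 of Fmod in sham versus intact), 12 gained one (of Chad or Prelp) and 9 changed sign. No change of sign was in a called value. Direction could not change in some of these fits. The filters, the eBayes settings, the replicate block and the fit on 6 libraries leave the log2 fold change of a gene as it was. So does leaving out a library of the group outside the comparison. In these fits only the side of the threshold could move. With a library left out, the sham versus intact log2 fold change of Dcn ranged from -0.14 to 0.050 (positive without intact replicate 1 or sham replicate 2), of Omd from -0.38 to 0.016 (positive without intact replicate 1), of Podn from -0.084 to 0.17 (negative without intact replicate 3) and of Chad from -2.00 to 0.77 (positive without intact replicate 1 or sham replicate 1). In pMx versus intact, that of Ogn ranged from -0.12 to 0.12 (negative without intact replicate 3 or pMx replicate 3) and was -0.076 with quantile normalization. The cause was not tested. With the fold-change threshold 4 in place of 7 of the 10 genes were called in pMx versus sham, since a further condition was set. Over all genes that threshold left 1355, 323 and 2360 genes in pMx versus sham, sham versus intact and pMx versus intact, in place of 6046, 2097 and 8350. An adjusted p below 0.01 left 3763 and 420 in the former pair, and the fit on 6 libraries 687 in sham versus intact, where leaving out a library gave 640 (without sham replicate 2) to 2971 (without intact replicate 3), 740 without sham replicate 1 and 1098 without intact replicate 2. Same-numbered libraries did not deviate together in every comparison, so the numbers were not taken as pairs. Correlations of their deviations were 0.035, 0.368 and 0.485 between pMx and sham and 0.002, -0.399 and -0.493 between sham and intact. Between pMx and intact they were -0.378, -0.439 and -0.664. With the replicate block 7, 3 and 7 of the 10 genes were called in place of 7, 4 and 8 (Fmod lost its call in sham versus intact, adjusted p = 0.0718, and Chad in pMx versus intact, adjusted p = 0.0921, by limma), and 5901, 1585 and 8208 of all genes. Paired by number, the 3 ratios gave an exact sign-flip p of 0.25 in each comparison, the smallest that 3 pairs allow, in place of 0.1.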
